A study of Mus musculus with 12 samples.

Results

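The 10 genes studied here encode core or accessory subunits of the Polycomb repressive complexes and were followed through 12 RNA sequencing libraries of mouse leukemic cells. Ezh1, Ezh2, Eed, Suz12 and Jarid2 belong to Polycomb repressive complex 2 (PRC2), and Ring1, Rnf2, Bmi1, Cbx7 and Cbx8 to complex 1 (PRC1). They were chosen by symbol, as 10 of the 25263 symbols of the expression table, and all 10 had a row. Jarid2, Rnf2 and Suz12 had several rows, of which the row with the highest mean over the 12 libraries was taken. All 10 passed the filter on low values, a mean of at least 1 FPKM over all libraries.

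The cells were bone marrow leukemic cells of adult mice with MLL-AF9 (MA9), the oncogene in which the N terminus of the histone methyltransferase MLL is joined to AF9. WT-GFP cells had a wild type Hoxa cluster (strain label C57BL/6) and received a control GFP retrovirus, and WT-Cre cells received a retrovirus for Cre recombinase. Hoxa-flox cells carried a Hoxa cluster flanked by the target sites of Cre (strain label C57BL/6J) and received the control virus, and Hoxa-del cells carried the same floxed cluster and received Cre. Every group had 3 libraries, and all cells were cultured overnight with SCF, GM-CSF, IL-6 and IL-3, infected and sorted for high GFP. How MLL-AF9 was brought into the cells, and whether the libraries of a group came from separate mice or cultures, is not given in the sources used here (p-values then cover the spread between these libraries alone, which may be technical).

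PRC2 places methyl groups on lysine 27 of histone H3, a mark of silenced developmental genes. Ezh2 and Ezh1 are its alternative catalytic subunits, of which Ezh2 is known to prevail in dividing cells and Ezh1 in resting ones, while Suz12 and Eed are the scaffold and the reader that both need, and Jarid2 is an accessory subunit that helps to direct the complex. PRC1 attaches ubiquitin to histone H2A through the ring finger ligases Rnf2 (RING1B) and Ring1 (RING1A). Bmi1 is one of several alternative PCGF partners of these ligases, and Cbx7 and Cbx8 are alternative chromodomain subunits that read methylated histone H3. Bmi1 is best known for silencing the Cdkn2a locus in blood stem cells, and Cbx8 for binding AF9, the fusion partner in these cells.

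Levels are given in FPKM, the fragments per kilobase of transcript relative to the size of the library, and changes as log2 of FPKM + 1, which understates the change of low genes. Estimated depth ran from 3.93 M fragments (WT-Cre 2) to 18.5 M (WT-GFP 3). The 8 Hoxa genes with a row summed to 505 to 528 FPKM in Hoxa-flox and 170 to 289 FPKM in Hoxa-del, against 292 to 322 FPKM in WT-GFP and 294 to 317 FPKM in WT-Cre, so that the deleted cluster was lower but not absent. Leukocyte and granulocyte progenitor markers were present in all libraries, with Ptprc (CD45) at 53.9 to 131 FPKM and the primary granule protease Elane at 841 to 2603 FPKM. Of the 9 tested progenitor markers, 2 rose and 4 fell in Hoxa-flox against WT-GFP. The progenitor surface marker Cd34 had 1.69 to 2.91 FPKM in the WT libraries and 55.3 to 75.9 FPKM in the floxed libraries, and the receptor Kit 3.81 to 5.44 and 24.5 to 38.4 FPKM. The granule enzyme Mpo had 179.7 to 326 FPKM in the WT libraries and 3.80 to 407 FPKM in the floxed libraries. Markers of mature cells also differed between the leukemias. The 12 monocyte and macrophage markers summed to 2258 to 2577 FPKM in the WT libraries and 127 to 488 FPKM in the floxed libraries. Lyz2 alone had 1896 to 2173 FPKM in the WT libraries. The 11 late neutrophil markers summed to 5834 to 6459 FPKM and 153 to 1805 FPKM. In Hoxa-flox against WT-GFP 8 of the 12 fell and 4 did not pass, and 8 of the 11 fell and 3 did not pass. Among all symbols 13.3% rose and 13.5% fell. In Hoxa-flox 1, Hoxa-flox 2 and Hoxa-del 2, Adgre1, Cd14 and Mmp9 lay above every WT library. Their levels there were 95.3 to 99.4, 32.8 to 35.1 and 48.3 to 61.1 FPKM, against at most 48.2, 27.35 and 24.6 FPKM. The defining T cell gene Cd3e reached at most 0.0766 FPKM in any library. The T cell kinase Lck, on the same list, had 0.191 to 0.495 FPKM in the WT libraries and 3.34 to 8.56 FPKM in the floxed libraries. In such bulk libraries fewer cells of a type and less RNA per cell cannot be told apart.

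The 6 floxed libraries fell into 2 sets of 3 that cut across the labels. They were read from the first principal component of the 13056 tested symbols outside the gene lists used here, which held 64.2% of the variance, and clustering put 6 of 6 libraries into the same sets. Hoxa-flox 1, Hoxa-flox 2 and Hoxa-del 2 had a low level of the proliferation marker Mki67 (14.9 to 17.8 FPKM) and are called the low-Mki67 set. Hoxa-flox 3, Hoxa-del 1 and Hoxa-del 3 had 84.6 to 93.2 FPKM and are called the high-Mki67 set. The 6 WT libraries had 65.1 to 78.2 FPKM. Libraries correlated at r = 0.952 to 0.987 within a set and 0.912 to 0.928 between sets, across genes, which are not independent replicates. Since the sets were read from the data, their differences are described with no test.

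Across all 12 libraries Rnf2 was the most abundant of the 10 genes, at a mean of 54.8 FPKM, followed by Jarid2 at 42.1, Suz12 at 32.1, Ezh2 at 25.5, Eed at 18.4, Ring1 at 14.4, Ezh1 at 12.3, Bmi1 at 11.98, Cbx8 at 9.79 and Cbx7 at 2.87 FPKM. The ranges of all neighbours in this order overlapped. Ezh1 exceeded Bmi1 in only 3 of 12 libraries, while Cbx8 exceeded Cbx7 in all 12. By the rows used, Jarid2 was the steadiest, with its highest library 1.25 times its lowest, and Cbx8 varied most, with a ratio of 10.1.

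By GENCODE M21 (GRCm38), all 10 are protein-coding genes at separate places of the genome. The PRC2 genes are Ezh2 (chr6:47530139-47595341, minus strand), Ezh1 (chr11:101191115-101226463, minus), Eed (chr7:89954654-89980983, minus), Suz12 (chr11:79993106-80034123, plus) and Jarid2 (chr13:44729474-44921643, plus). The PRC1 genes are Rnf2 (chr1:151458004-151500955, minus), Ring1 (chr17:34020792-34024680, minus), Bmi1 (chr2:18677018-18686629, plus), Cbx7 (chr15:79915807-79971119, minus) and Cbx8 (chr11:119036305-119040969, minus). Genes on the opposite strand share 100 to 261 exonic bases with Rnf2, Ezh2, Eed, Suz12 and Cbx7, and whether reads were counted by strand is not given in the sources used here.

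**Figure D1:**
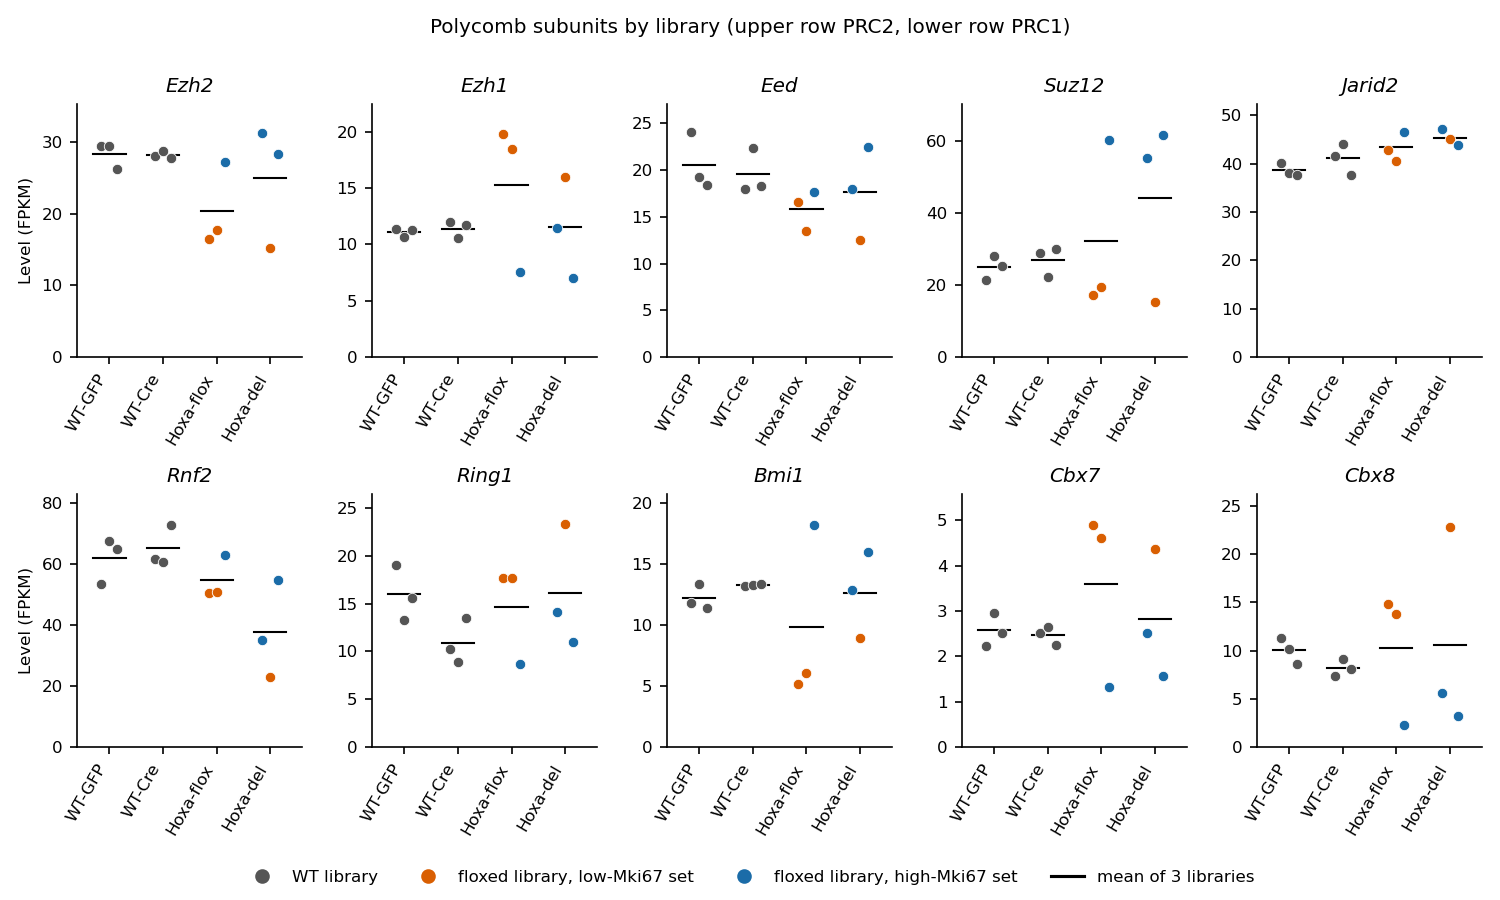
Level of each of the 10 Polycomb genes (FPKM) in every library of the 4 groups; each point is a library, coloured by set where floxed, and bars are means of 3 libraries. Hoxa-flox and Hoxa-del points split by set for 8 of the 10 genes and not for the rows used for Jarid2 or Rnf2.

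Ezh2, the PRC2 methyltransferase of dividing cells, was even in the WT libraries and split in the floxed ones. It stood at 29.5, 29.4 and 26.2 FPKM in WT-GFP and 28.1, 28.8 and 27.8 FPKM in WT-Cre. Hoxa-flox 1, 2 and 3 had 16.4, 17.7 and 27.2 FPKM, and Hoxa-del 1, 2 and 3 had 31.3, 15.2 and 28.3 FPKM. The high-Mki67 set thus lay at 27.2 to 31.3 FPKM, around the WT level, and the low-Mki67 set below it at 15.2 to 17.7 FPKM, a 1.76-fold difference of the set means.

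Ezh1, the alternative methyltransferase, went the other way. It had 11.4, 10.6 and 11.3 FPKM in WT-GFP, 11.96, 10.6 and 11.7 in WT-Cre, 19.8, 18.5 and 7.55 in Hoxa-flox and 11.5, 16.0 and 7.06 in Hoxa-del. The low-Mki67 set was higher, at 16.0 to 19.8 FPKM against 7.06 to 11.5 FPKM, a 2.08-fold difference. The ratio of Ezh2 to Ezh1 was 2.32 to 2.77 in the 6 WT libraries and 2.73 to 4.004 in the high-Mki67 set. In the low-Mki67 set it was 0.831 to 0.960, so that Ezh1 was the more abundant methyltransferase transcript per length in these 3 libraries.

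Suz12, the scaffold that PRC2 needs for stability, showed the widest split of the 5 PRC2 genes among the 10. WT-GFP had 21.3, 28.1 and 25.4 FPKM and WT-Cre 28.9, 22.3 and 30.1 FPKM. Hoxa-flox had 17.3, 19.5 and 60.2 FPKM and Hoxa-del 55.4, 15.2 and 61.6 FPKM. All 3 libraries of the high-Mki67 set lay above every WT library and all 3 of the low-Mki67 set below every WT library, and the set means differed 3.40-fold.

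Eed, the subunit that binds methylated lysine 27, split in the same direction by less. Its levels were 24.0, 19.3 and 18.4 FPKM in WT-GFP, 18.0, 22.4 and 18.3 in WT-Cre, 16.5, 13.5 and 17.6 in Hoxa-flox and 18.0, 12.6 and 22.5 in Hoxa-del. The sets did not overlap (12.6 to 16.5 against 17.6 to 22.5 FPKM; 1.37-fold). The row used for Jarid2 did not split. It had 37.7 to 40.1 FPKM in WT-GFP, 37.6 to 44.2 in WT-Cre, 40.6 to 46.6 in Hoxa-flox and 43.9 to 47.1 in Hoxa-del. The further rows of Jarid2, at lower levels, were higher in every high-Mki67 library. Row 2 by level had 2.37 to 3.84 FPKM in the low-Mki67 set and 4.36 to 9.09 FPKM in the high-Mki67 set. Row 3 had 1.29 to 2.03 and 4.20 to 6.60 FPKM, and row 4 had 0 to 0.979 and 1.25 to 3.36 FPKM.

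Bmi1, the PCGF subunit of canonical PRC1, had 11.8, 13.4 and 11.4 FPKM in WT-GFP and 13.2, 13.3 and 13.4 FPKM in WT-Cre. Hoxa-flox had 5.18, 6.06 and 18.2 FPKM and Hoxa-del 12.8, 8.95 and 16.0 FPKM. The low-Mki67 set lay below all WT libraries, and the high-Mki67 set, at 12.8 to 18.2 FPKM, was 2.33-fold above it.

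The chromodomain subunits ran opposite to Bmi1. Cbx8 had 11.3, 10.2 and 8.66 FPKM in WT-GFP, 7.42, 9.14 and 8.13 in WT-Cre, 14.9, 13.8 and 2.26 in Hoxa-flox and 5.59, 22.8 and 3.23 in Hoxa-del. This was the widest split of the 10 genes, 4.65-fold higher in the low-Mki67 set, with the WT libraries between the sets. Cbx7 was low throughout, at 2.23, 2.95 and 2.52 FPKM in WT-GFP, 2.52, 2.65 and 2.25 in WT-Cre, 4.89, 4.60 and 1.32 in Hoxa-flox and 2.51, 4.36 and 1.57 in Hoxa-del, and was 2.57-fold higher in the low-Mki67 set. The ratio of Bmi1 to Cbx8 was 1.05 to 1.78 in the WT libraries, 0.348 to 0.439 in the low-Mki67 set and 2.30 to 8.06 in the high-Mki67 set.

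Of the E3 ligases, Ring1 was 1.74-fold higher in the low-Mki67 set (17.7 to 23.3 against 8.67 to 14.1 FPKM). It had 19.1, 13.3 and 15.6 FPKM in WT-GFP, 10.3, 8.94 and 13.5 in WT-Cre, 17.7, 17.7 and 8.67 in Hoxa-flox and 14.1, 23.3 and 11.02 in Hoxa-del. The row used for Rnf2 overlapped between the sets (22.9 to 50.7 against 35.0 to 63.0 FPKM). The second row of Rnf2, at a lower level, did not overlap. That row had 6.40 to 7.77 FPKM in the low-Mki67 set and 12.2 to 15.3 FPKM in the high-Mki67 set. The ratio of Rnf2 to Ring1 was 2.81 to 6.79 in the WT libraries, 0.981 to 2.87 in the low-Mki67 set and 2.49 to 7.27 in the high-Mki67 set, and was below 1 in 1 library, Hoxa-del 2. Its levels are given with the comparison of Hoxa-del and WT-Cre below.

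In the rows used, 4 genes (Suz12, Bmi1, Ezh2 and Eed) were higher in every library of the high-Mki67 set and 4 (Cbx8, Cbx7, Ezh1 and Ring1) higher in every library of the low-Mki67 set. Such separation was common, as 54.8% of all tested symbols did not overlap between the sets, 23.1% with the high-Mki67 set above and 31.7% with it below. Suz12, Bmi1, Cbx7 and Cbx8 also differed by over 1 on the log2 scale, 4 of 10 against 13.1% of all tested symbols. The median size of the difference was 0.89 for the 10 genes and 0.44 for all. The tested symbols include genes down to a mean of 1 FPKM, whose changes this scale understates. The 10 genes were not compared with genes of like level. The WT mean lay between the set means for 7 of the 10, the exceptions being Eed, Jarid2 and Rnf2. Of 20 proliferation genes, 19 were higher in every library of the high-Mki67 set, and macrophage markers summed to 470 to 488 FPKM in the low-Mki67 set and 127 to 212 FPKM in the high-Mki67 set; their part in the Polycomb differences was not tested.

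**Figure D2:**
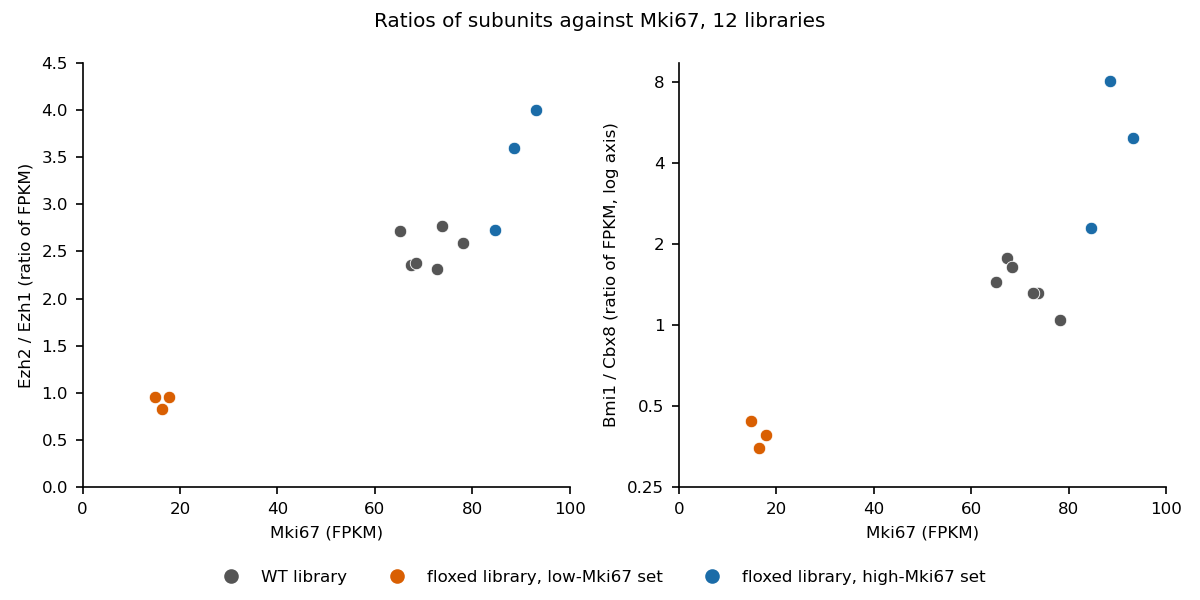
Ratio of FPKM of Ezh2 to Ezh1 (linear axis) and of Bmi1 to Cbx8 (log axis) against the Mki67 level in FPKM, 1 point per library. The low-Mki67 floxed libraries lie below 1 for both ratios, and the WT and high-Mki67 libraries above 1.

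**Figure D3:**
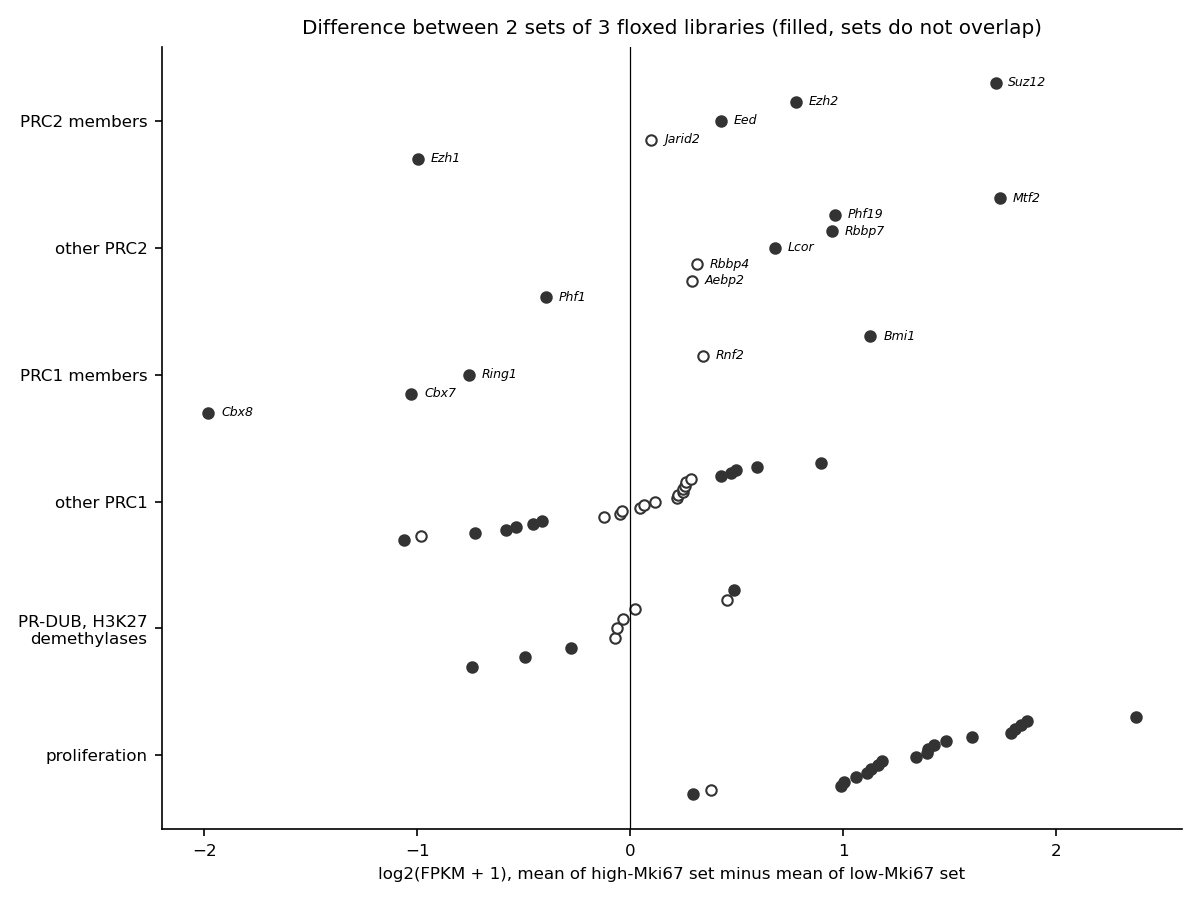
Mean difference on the log2(FPKM + 1) scale between the high-Mki67 and the low-Mki67 floxed libraries for each tested gene of the PRC2, PRC1, opposing and proliferation lists; each point is a gene, filled where the sets do not overlap. Among the Polycomb genes Suz12 (1.72) and Mtf2 (1.74) lie farthest to the high-Mki67 side, and Cbx8 (-1.98) farthest to the low-Mki67 side.

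The promoters of Suz12, Ezh2, Ezh1 and Cbx8 are shown because these genes separated the sets in opposite directions. All 10 genes matched a RefSeq promoter (build GRCm38.p6, 250 bases before to 50 after the start, 11 promoters since Jarid2 had 2). The Suz12 sequence is chr11:79992856-79993155 on the plus strand. On the minus strand lie Ezh2 (chr6:47594981-47595280), Ezh1 (chr11:101226414-101226713) and Cbx8 (chr11:119040864-119041163). Capitals mark matches to the E2F letters TTTCCCGC, TTTGGCGC, TTTCGCGC or TTTGCCGC, the CHR letters TTTGAA or TTCGAA, and the NRF1 letters GCGC, any base and TGCGC, searched on both strands.
Suz12: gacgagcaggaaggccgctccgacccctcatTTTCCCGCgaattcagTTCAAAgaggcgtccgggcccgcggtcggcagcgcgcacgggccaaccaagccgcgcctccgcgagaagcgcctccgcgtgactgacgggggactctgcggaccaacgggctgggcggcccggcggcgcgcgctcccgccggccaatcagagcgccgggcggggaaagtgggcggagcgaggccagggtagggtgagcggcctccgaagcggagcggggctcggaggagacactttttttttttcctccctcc
Ezh2: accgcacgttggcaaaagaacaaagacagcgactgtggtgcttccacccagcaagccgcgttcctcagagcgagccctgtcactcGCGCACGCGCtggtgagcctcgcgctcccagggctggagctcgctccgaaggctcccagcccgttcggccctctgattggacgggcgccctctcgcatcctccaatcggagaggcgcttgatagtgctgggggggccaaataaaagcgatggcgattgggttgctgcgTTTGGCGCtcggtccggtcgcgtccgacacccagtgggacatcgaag
Ezh1: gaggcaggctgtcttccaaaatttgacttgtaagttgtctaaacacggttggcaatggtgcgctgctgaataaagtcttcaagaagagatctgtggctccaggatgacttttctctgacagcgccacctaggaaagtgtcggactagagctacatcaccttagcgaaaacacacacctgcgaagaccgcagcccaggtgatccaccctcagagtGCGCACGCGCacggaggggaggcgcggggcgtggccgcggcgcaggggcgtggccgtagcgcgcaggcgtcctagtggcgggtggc
Cbx8: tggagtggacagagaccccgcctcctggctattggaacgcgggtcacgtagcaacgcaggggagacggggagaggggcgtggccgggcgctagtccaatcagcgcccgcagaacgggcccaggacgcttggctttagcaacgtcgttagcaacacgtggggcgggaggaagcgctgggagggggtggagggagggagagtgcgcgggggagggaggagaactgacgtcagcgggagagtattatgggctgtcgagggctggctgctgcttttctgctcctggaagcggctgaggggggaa
Counted from 1 at the 5′ end, the Suz12 promoter held E2F letters at bases 32 to 39 and CHR letters at 48 to 53. The Ezh2 promoter held E2F letters at 254 to 261 and NRF1 letters at 86 to 95, the Ezh1 promoter NRF1 letters at 215 to 224, and the Cbx8 promoter none of the letters searched. Among all 11 promoters, E2F letters were in 2 (Suz12 and Ezh2), against 2.27% of 32851 RefSeq promoters. CHR letters were in 3 (Suz12, Eed and Cbx7; 19.2% of all), and NRF1 letters in 3 (Ezh2, Ezh1 and Cbx7, with overlapping matches in Cbx7; 4.60% of all). A match of letters is a description and not a binding site. The 11 promoters were rich in G and C, at 54.7% to 74.0% against a median of 52.7% for all promoters.

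After Cre in the floxed cells, none of the 10 genes changed past the threshold. With limma on all 13169 tested symbols, 0 of 10 passed an adjusted p of 0.05 in Hoxa-del against Hoxa-flox, where 0.0304% of all symbols passed. An unadjusted p under 0.05 was found for 1 of 10 (Rnf2) and for 826 of the 13169 symbols. The largest differences were those of Rnf2 (log2 change -0.61, SE 0.25, adjusted p = 0.729), Bmi1 (0.49, SE 0.36, adjusted p = 0.745) and Suz12 (0.44, SE 0.52, adjusted p = 0.805). Ezh2 differed by 0.25 (SE 0.25, adjusted p = 0.779). The median difference was 0.09 for the 10 genes and -0.06 for all symbols. Hoxa-flox held 2 low-Mki67 libraries and Hoxa-del 1.

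Within the sets, Suz12 and Ezh2 lay closer together with and without Cre than over all floxed libraries. Suz12 differed by -0.26 in the low-Mki67 set (1 Hoxa-del library against 2 of Hoxa-flox) and by -0.04 in the high-Mki67 set (2 against 1). Ezh2 differed by -0.15 and 0.12, and Bmi1 by 0.59 and -0.32. Rnf2 was lower with Cre in both sets, by -1.11 and -0.51, and Cbx8 (0.64 and 0.70) and Ring1 (0.38 and 0.48) were higher in both. With the set as a term, 0 of 10 passed, against 0.0304% of all symbols, and the adjusted p was 0.226 for Rnf2, 0.240 for Cbx8 and 0.369 for Ring1.

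None of the 10 passed with Cre in WT cells either, where their log2 changes ran from -0.52 to 0.11. In WT-Cre against WT-GFP, 0 of 10 passed in limma, where 0.0152% of all symbols passed. An unadjusted p under 0.05 was found for 0 of 10 and for 312 of the 13169 symbols. Ring1 differed most, at 10.9 ± 2.34 FPKM in WT-Cre and 16.0 ± 2.88 in WT-GFP (SD, n = 3; log2 change -0.52, SE 0.31, adjusted p = 1), with overlapping groups. The test of whether the change with Cre differed between floxed and WT cells passed for 0 of 10 genes, against 0.00759% of all symbols. In that test 0 of 10 had an unadjusted p under 0.05, against 324 of the 13169 symbols. Rnf2 differed by -0.68 (SE 0.36) and Ring1 by 0.65 (SE 0.44) in that test.

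The floxed and WT leukemias differed in many genes, but none of the 10 passed with the control virus. In Hoxa-flox against WT-GFP 26.8% of all symbols passed in limma, and 0 of 10 members. An unadjusted p under 0.05 was found for 0 of the 10 and for 5051 of the 13169 symbols. Ezh2 averaged 20.5 ± 5.89 FPKM against 28.4 ± 1.85 (SD, n = 3; log2 change -0.48, SE 0.25, adjusted p = 0.179). Bmi1 averaged 9.82 ± 7.29 against 12.2 ± 1.04 FPKM (-0.49, SE 0.36, adjusted p = 0.353), and Ezh1 15.3 ± 6.72 against 11.1 ± 0.401 FPKM (0.32, SE 0.33, adjusted p = 0.517). The groups did not overlap for Eed, which was lower in Hoxa-flox (-0.35, SE 0.20, adjusted p = 0.230), and for Jarid2, which was higher (0.16, SE 0.11, adjusted p = 0.314), 2 of 10 against 47.2% of all symbols, with 23.9% higher and 23.3% lower. These values depend on 1 library. Without Hoxa-flox 3, its only high-Mki67 library, Bmi1 (-0.999, adjusted p = 0.00377), Ezh1 (0.73, adjusted p = 0.0435) and Ezh2 (-0.70, just under the threshold) passed, 3 of 10, where 31.7% of all symbols passed.

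Rnf2, which encodes a catalytic ligase of PRC1, was the 1 gene of the 10 that passed in Hoxa-del against WT-Cre, where 27.2% of all symbols passed, 14.2% with lower levels in Hoxa-del. It had 53.4, 67.5 and 64.7 FPKM in WT-GFP, 61.5, 60.7 and 72.8 in WT-Cre, 50.3, 50.7 and 63.0 in Hoxa-flox and 35.0, 22.9 and 54.8 in Hoxa-del. Every Hoxa-del library lay below every WT-Cre library, as for 20.7% of all symbols, and Hoxa-del 2, the shallowest floxed library (6.39 M fragments), lay lowest. The means were 37.6 ± 16.1 FPKM in Hoxa-del and 65.0 ± 6.76 in WT-Cre (SD, n = 3; log2 change -0.86, SE 0.25, adjusted p = 0.0279). That call was lost without any 1 of WT-Cre 1, WT-Cre 2, WT-Cre 3, Hoxa-del 1 or Hoxa-del 2 (adjusted p = 0.0568 to 0.0962), and without Hoxa-del 2 the change was -0.55. The second row of Rnf2, which the choice of row left out, overlapped between these groups. That row had 13.1, 6.40 and 12.2 FPKM in Hoxa-del and 15.1, 9.77 and 11.7 in WT-Cre. Of the 4127 exonic bases of Rnf2, 158 are shared with Trmt1l on the opposite strand (mean 14.4 FPKM). Ring1 (0.48, SE 0.31, adjusted p = 0.281) and Suz12 (0.47, SE 0.52, adjusted p = 0.554) did not pass. Genotype, strain label and leukemia differ together in both comparisons of floxed with WT cells and cannot be told apart, and the macrophage and neutrophil marker sums given above differ with them. The 20 proliferation genes summed to 607 to 634 FPKM in WT-GFP, 517 to 527 in WT-Cre, 368 to 1147 in Hoxa-flox and 431 to 1034 in Hoxa-del. The part of these markers in the differences was not tested.

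**Figure D4:**
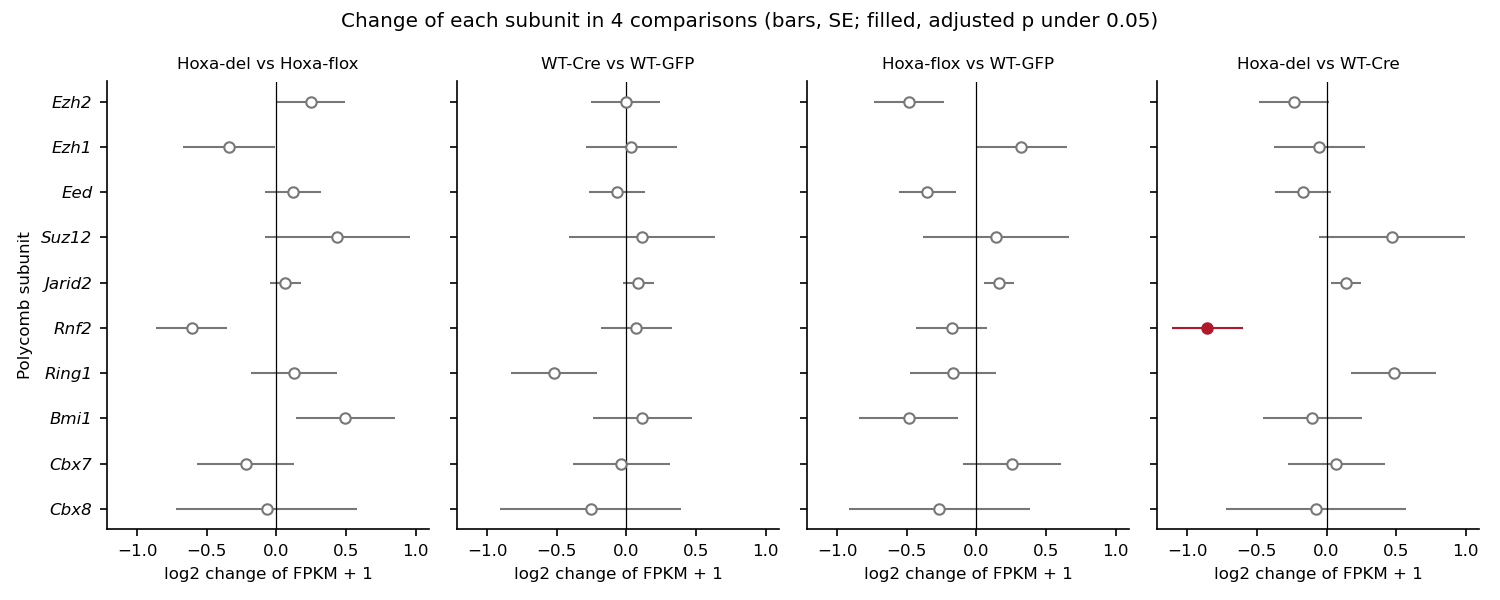
Log2 change of each of the 10 genes in the comparisons, with error bars of 1 SE from limma; filled points passed an adjusted p of 0.05. Rnf2 in Hoxa-del against WT-Cre is the only filled point.

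Outside the 10 genes, several PRC1 subunits of the variant complexes and other Polycomb proteins differed between the leukemias. Of 25 further PRC1 genes tested, out of 28 listed, 4 rose and 4 fell in Hoxa-flox against WT-GFP and 17 did not pass. In Hoxa-del against WT-Cre 7 rose and 5 fell, and 13 did not pass. Among all symbols 13.3% rose and 13.5% fell in the former, and 13.0% rose and 14.2% fell in the latter.

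Auts2, a partner of the variant complexes with PCGF3 or PCGF5, was at 0.0279 to 0.111 FPKM in WT-GFP and listed at 0 in all 3 WT-Cre libraries. It had 14.5, 21.8 and 4.45 FPKM in Hoxa-flox (log2 change 3.56, SE 0.41, adjusted p = 8.48e-05) and 8.69, 6.12 and 5.16 FPKM in Hoxa-del (adjusted p = 0.000376 against WT-Cre). Pcgf5, an alternative to Bmi1 in PRC1, rose from 7.17 ± 0.261 FPKM in WT-GFP to 16.1 ± 3.80 in Hoxa-flox (1.04, SE 0.17, adjusted p = 0.000870), and averaged 6.87 ± 0.483 in WT-Cre and 17.8 ± 2.74 in Hoxa-del. Pcgf6, the PCGF subunit of the complex with Mga and E2f6, rose from 1.05 ± 0.0850 to 3.81 ± 0.880 FPKM (1.22, SE 0.18, adjusted p = 0.000456).

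Among the genes that fell, Rybp, which stimulates the ligase of variant PRC1, fell to 2.16 ± 0.351 FPKM in Hoxa-flox from 5.50 ± 0.445 in WT-GFP (-1.05, SE 0.17, adjusted p = 0.00112). Sfmbt2, a Polycomb group protein with MBT domains, averaged 5.76 ± 0.766 and 1.63 ± 0.251 FPKM (-1.36, SE 0.18, adjusted p = 0.000233). In Hoxa-del against WT-Cre these 5 genes passed in the same direction, with changes of 1.25 for Pcgf5, 1.25 for Pcgf6, -0.93 for Rybp and -1.61 for Sfmbt2. The groups did not overlap for any of them in either comparison, as for 47.2% and 41.3% of all symbols.

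**Figure D5:**
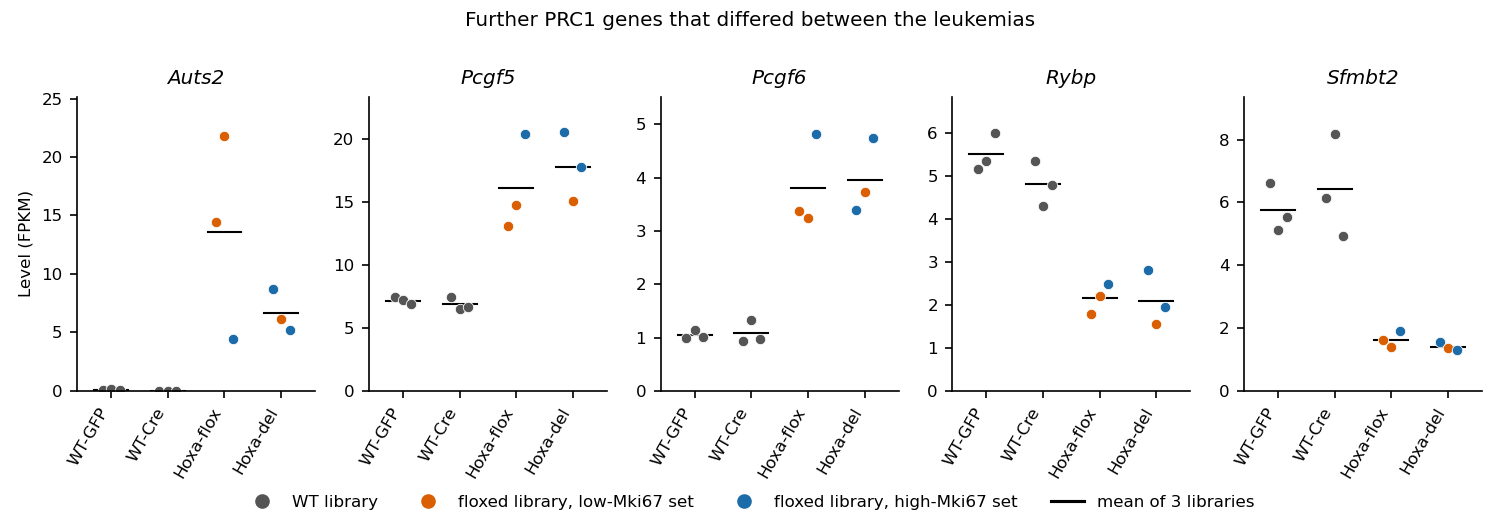
Level in FPKM of the PRC1 genes Auts2, Pcgf5, Pcgf6, Rybp and Sfmbt2 in every library; each point is a library, coloured by set where floxed, and bars are means of 3 libraries. The floxed libraries lie above the WT libraries for Auts2, Pcgf5 and Pcgf6 and below them for Rybp and Sfmbt2, in both sets.

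None of the further PRC2 subunits passed between the leukemias. Of 7 tested, out of 9 listed, 0 passed in either comparison in limma, where 0 had an unadjusted p under 0.05 in Hoxa-flox against WT-GFP and 1 in Hoxa-del against WT-Cre. Of all 13169 symbols 26.8% and 27.2% passed in these comparisons, and 5051 and 5077 had an unadjusted p under 0.05. The histone chaperones Rbbp4 (64.0 ± 17.8 FPKM in Hoxa-flox and 47.7 ± 2.11 in WT-GFP, log2 change 0.38, adjusted p = 0.133) and Rbbp7 (67.1 ± 37.4 and 46.9 ± 2.57, 0.38, adjusted p = 0.440) were the most abundant. Between the floxed sets, 4 of the 7 were higher in every high-Mki67 library and 1 (Phf1) was lower, against 23.1% of all symbols higher without overlap and 31.7% lower. Mtf2, which helps PRC2 to bind unmethylated CpG islands, had 6.69 to 9.21 FPKM in the low-Mki67 set, 22.7 to 33.8 FPKM in the high-Mki67 set and 22.97 to 25.7 FPKM in the WT libraries. Rbbp7 had 42.2 to 49.0 and 67.4 to 110.1 FPKM in the sets.

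Some genes that oppose Polycomb passed the test between the leukemias. Of 9 tested, 3 fell and 0 rose in Hoxa-flox against WT-GFP, where 13.5% of all symbols were called lower and 13.3% higher. In limma 7 of the 9 had an unadjusted p under 0.05, as had 5051 of the 13169 symbols. Among those that did not pass, Bap1 and Foxk2 were higher without overlap, and Asxl1 and Kdm6a lower. All were named after their values were seen. Of all symbols 23.9% were higher and 23.3% lower without overlap. Asxl1 had 19.5 to 23.2 FPKM in Hoxa-flox and 24.4 to 28.15 in WT-GFP, and Kdm6a 10.5 to 14.1 and 15.3 to 16.8 FPKM. Bap1 had 22.7 to 24.7 FPKM in Hoxa-flox and 16.3 to 21.5 in WT-GFP (log2 change 0.37, adjusted p = 0.113), and Foxk2 had 18.2 to 27.3 and 16.7 to 17.9 FPKM (log2 change 0.43, adjusted p = 0.0751). Asxl2, a partner of the H2A deubiquitinase Bap1, averaged 14.8 ± 0.979 FPKM against 26.1 ± 0.972 (-0.78, SE 0.19, adjusted p = 0.00997). Mbd5 averaged 65.3 ± 1.29 against 93.6 ± 3.09 FPKM (-0.51, SE 0.14, adjusted p = 0.0177), and Mbd6 30.5 ± 2.80 against 40.1 ± 1.62 FPKM (-0.39, SE 0.12, adjusted p = 0.0305), both methyl-CpG-binding domain proteins of the same complex. In Hoxa-del against WT-Cre only Mbd5 passed (-0.60, adjusted p = 0.00819). The Mbd5 call in Hoxa-flox against WT-GFP was lost without WT-GFP 1, WT-GFP 2 or Hoxa-flox 2 (adjusted p = 0.0559 to 0.0641), and the Mbd6 call without any 1 of the 3 WT-GFP libraries, Hoxa-flox 1 or Hoxa-flox 3 (0.0585 to 0.105). After Cre, 0 genes of these 3 lists passed in either genotype or in the test of the difference between genotypes. All symbols passed at 0.0304% in floxed cells, 0.0152% in WT cells and 0.00759% in that test. Of these genes 1, the PRC1 gene Scmh1 (named after its values were seen), had an unadjusted p under 0.05, in WT cells and in that test. So had 312 and 324 of the 13169 symbols.

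Loci that Polycomb is known to silence were mostly too low to test. Of 19 listed, 13 had a row and 2 passed the filter. In limma 0 of these 2 passed in either comparison of the leukemias, with 1 (Cdkn2a) at an unadjusted p under 0.05 in Hoxa-flox against WT-GFP and 0 in Hoxa-del against WT-Cre. Of all 13169 symbols 26.8% and 27.2% passed in these comparisons, and 5051 and 5077 had an unadjusted p under 0.05. Cdkn2a, which encodes cell cycle inhibitors silenced by Bmi1, averaged 9.14 ± 1.24 FPKM in Hoxa-flox and 6.12 ± 1.05 in WT-GFP, with groups that did not overlap and an adjusted p of 0.107. It had 9.07 to 9.96 FPKM in the low-Mki67 set and 4.78 to 7.72 FPKM in the high-Mki67 set. Of all symbols 31.7% were likewise lower in the high-Mki67 set without overlap, and a relation of Cdkn2a to the level of Bmi1 was not tested. Its neighbour Cdkn2b was named after its values were seen and lay below the filter. The row used for Cdkn2b ran the other way, at 0.220 to 0.276 FPKM in the low-Mki67 set, 1.42 to 1.79 FPKM in the high-Mki67 set and 0.879 to 1.197 FPKM in the WT libraries. A second row of Cdkn2b, of similar mean level (0.880 against 0.989 FPKM), overlapped between the sets. That row had 0.624 to 1.53 FPKM in the low-Mki67 set and 0 to 0.882 FPKM in the high-Mki67 set. Hoxb13, the other locus above the filter, averaged 5.42 FPKM in Hoxa-flox and 4.91 in WT-GFP (adjusted p = 0.630).

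The symbols whose pattern over the 12 libraries was most like that of 4 of the genes were found by Pearson correlation on log2(FPKM + 1), among symbols that averaged 5 FPKM or more. For Ezh2 they were Bora (r = 0.981), Fam49b (0.977) and Mtf2 (0.975), for Bmi1 Psmc6 (0.971), Abracl (0.969) and Sept7 (0.968). For Ezh1 they were N4bp2l1 (0.978), Tgm2 (0.976) and Nos1ap (0.972), and for Cbx7 Esr1 (r = 0.975), N4bp2l1 (0.973) and Tgm2 (0.971). These values describe 12 libraries that fall into a few groups and carry no test.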

How the data were processed

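The authors deposited 1 table of the series with 28042 rows named by gene symbol and 1 column per library (0 columns without a sample). Neither header nor labels state the unit, and the deposited values were taken as FPKM, the unit Cufflinks gives. They were made from stranded, ribosomal RNA-depleted libraries sequenced on a NextSeq instrument, per the labels' protocols. Per the submitters' processing notes, the tools were Cuffdiff 2.2.2.20150701, Cufflinks and STAR and the genome mm10 (GRCm38), without stated roles. Not given in the sources used here are the annotation, the scaling between libraries and the use of strand in counting. Depth was estimated from the steps between low values (mean under 0.3 FPKM) and the transcript lengths of 462 genes. It runs from 3.93 M to 18.5 M fragments, so levels of low genes such as Cbx7 are less precise in the shallow libraries.

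The 13169 symbols that averaged 1 FPKM or more were fitted on the log2(FPKM + 1) scale with limma-trend (limma 3.58.1 in R 4.3.3). All 4 groups of 3 libraries entered 1 fit, with Benjamini-Hochberg adjustment over all symbols tested and a threshold of 0.05. The fitting code was tested on simulated data. Tables and figures used Python 3.11.15, pandas 2.3.3, numpy 2.4.6, scipy 1.17.1 and matplotlib 3.10.9. Coordinates and exon overlaps come from GENCODE M21 (GRCm38). The genes and lists were chosen with earlier results of these data known. Named besides the 10 genes were, from each other Polycomb list, up to 5 genes past the threshold with the smallest adjusted p in Hoxa-flox against WT-GFP, or, where none passed, the 2 most abundant. Any other gene outside these rules was named after its values were seen, among them Cdkn2b and Scmh1. Alternatives were a pseudocount of 0.1, no filter, rescaling to equal upper quartiles or by median of ratios, array weights, fits restricted to the 2 groups in question, terms for the replicate number or the library set, summed rows of repeated symbols, and each library left out in turn.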

Additional observations from a re-analysis of the deposited data

Results flagged for a closer look

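The second row of Jarid2, which the selection of the row with the highest level left out, was higher in every WT-Cre library than in any WT-GFP library, with a mean of 6.70 FPKM in WT-Cre. The WT-GFP libraries had 2.73, 3.80 and 3.97 FPKM and the WT-Cre libraries 7.21, 6.95 and 5.96 FPKM. Of all tested symbols 9.31% were higher in WT-Cre than in WT-GFP without overlap. Further rows of Ptprc, Myb, Mbd5 and Adgre1 were also higher in WT-Cre without overlap, so this is not particular to Jarid2. That of Myb had 3.94 to 11.5 FPKM in WT-GFP and 14.6 to 20.7 FPKM in WT-Cre, and that of Mbd5 had 14.3 to 18.6 and 22.9 to 26.8 FPKM. The Jarid2 row stood out because it holds a signal above the control in data that the main fit did not use. It entered only the alternative with summed rows of repeated symbols. What transcript it holds is not given in the sources used here, and the difference was not tested. The row used for Jarid2 averaged 41.1 ± 3.32 FPKM in WT-Cre and 38.6 ± 1.32 in WT-GFP (SD, n = 3).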

How the results depend on the processing

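The count of the 10 genes past the threshold moved with 2 settings and with single libraries. With array weights it was 6 in Hoxa-del against Hoxa-flox, 8 in Hoxa-flox against WT-GFP, 2 in Hoxa-del against WT-Cre and 6 for the difference between genotypes. All symbols then passed at 39.3%, 69.8%, 36.5% and 26.2%. In the fit of only the 2 groups compared, the count in Hoxa-del against WT-Cre was 0 (Rnf2, adjusted p = 0.0945; Mbd5, adjusted p = 0.0623). Leaving out each library in turn gave 0 to 3 in Hoxa-flox against WT-GFP, where 3 passed without Hoxa-flox 3 (all symbols 31.7%) and 1 (Ezh2, adjusted p = 0.0435) without Hoxa-del 2 (all symbols 35.2%, range 18.2% to 35.2%). It gave 0 to 1 in Hoxa-del against WT-Cre (all symbols 19.3% to 33%), with 0 without any WT-Cre library, Hoxa-del 1 or Hoxa-del 2, and 0 to 0 in the other 3 comparisons. The change of Rnf2 in Hoxa-del against WT-Cre ran from -1.17 to -0.55 over 20 alternatives (adjusted p = 0.00249 to 0.0962) and passed in 14. With the library set as a term the difference of Suz12 in Hoxa-del against Hoxa-flox turned to -0.15 and that of Ezh2 to -0.0147, and without Hoxa-flox 3 that of Rbbp7 in Hoxa-flox against WT-GFP turned to negative (range -0.0418 to 0.64 over the libraries left out in turn). None of these 3 passed. Of 1020 recomputed differences of the 10 genes 58 changed sign, 0 of them past the threshold in the reported values, and 3 past it with array weights. The cause of these changes was not tested. The calls of Auts2, Pcgf5, Pcgf6, Rybp and Sfmbt2 held under the alternatives that were run for both comparisons of the leukemias. The term for the library set was not among these, as it was fitted only for the changes with Cre and their difference between genotypes.

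The replicate numbers did not pair the libraries: of 18 pairs with the same number, 3 correlated above 0.1 in their deviations from the group means (-0.304 to 0.721), and 4 of 12 libraries correlated best with their own number. With the replicate number as a block, the count of the 10 genes was 0 in Hoxa-del against Hoxa-flox, 0 in WT-Cre against WT-GFP, 0 in Hoxa-flox against WT-GFP, 1 in Hoxa-del against WT-Cre (Rnf2, adjusted p = 0.0163) and 0 for the difference between genotypes. All symbols then passed at 0.0228%, 0%, 27.3%, 27.6% and 0.00759%.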
